A study of Homo sapiens with 20 samples.

Results

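The cyclins, the cyclin-dependent kinases (CDKs) of the cell cycle, their inhibitors and the E2F and RB families were followed in HepaRG cells. HepaRG is a line of hepatic progenitors from a human hepatoma that can mature in culture into cells like hepatocytes and like bile duct cells. The 48 genes were taken by name, with the CDC25 phosphatases, the kinases that inhibit CDK1, the CKS proteins, SKP2 and MYBL2, and not by their values. They are covered by 63 of the 42405 probes of a one-color Agilent 8x60K array, of which 58 probes of 47 genes were bright enough to be tested, among 22221 genes tested in all. RNA of 4 independent experiments was hybridised for each of 5 conditions, 20 arrays in all. D4 and D15 are cells collected at these days of culture without dimethyl sulfoxide (DMSO), and D30 − DMSO is the same culture kept without it. D30 + DMSO is the culture that received 2% DMSO from D15 onwards, and D34 ± DMSO is that culture 4 days after DMSO was taken away. No culture was kept in DMSO to D34, so that removal and 4 more days of culture cannot be told apart. All 5 conditions shared a serum-containing medium with insulin and hydrocortisone, so no group was free of these. The cells come from 1 line, and each culture can hold several cell types, so that fewer cells of a type and less RNA per cell cannot be told apart in these bulk samples.

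A cyclin activates its CDK partner, and successive pairs drive the cell through the cycle: cyclins D with CDK4 and CDK6 in G1, cyclins E and A with CDK2 at the start of and through S phase, and cyclins A and B with CDK1 into mitosis. The G1 kinases phosphorylate RB, which otherwise holds back the E2F factors, and E2F in turn switches on the genes of DNA replication, several cyclins and some of the E2F genes themselves. The CDKN1 and CDKN2 proteins block the kinases, and mature hepatocytes are known for resting outside the cycle and for being able to enter it again. The data therefore bear on which of these regulators fell when HepaRG cells passed from D4 to D15, whether DMSO changed them further, and which rose when it was withdrawn.

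Levels are given as log2 signal, where 0 is the 75th percentile of the array, and differences as log2 fold changes. Levels of different genes are not set against each other, because each probe has its own brightness. Differences were tested with limma over the 22221 genes, with standard errors (SE) from 4 arrays per condition, and a gene was called higher or lower where it differed over 2-fold and its p, adjusted by Benjamini-Hochberg, was under 0.005. Between 61.1% and 74.2% of the spots of an array were well above background. Slide 4, the only slide of the second scan session, holds replicate 4 of every condition and replicate 3 of D15 and of D30 + DMSO. On the array level, the mean deviation of the 21 members called at D15 from their condition means ran from -0.46 in D30 + DMSO replicate 1 to 0.32 in D30 − DMSO replicate 4, and all 7 arrays of slide 4 lay above 0. The hepatocyte markers were called higher at D15 for 11 of 11 genes, and their summed linear level ran from 218 to 493 at D4 and from 1951 to 2962 at D15. The summed level of 8 mesenchymal and stellate markers, of which COL1A2 and PDGFRB were well above background on no array, ran from 22.4 to 38.9 at D4 and from 12.8 to 18.9 at D15. Among 6 biliary and progenitor markers, CFTR and EPCAM were not well above background on any array, and the summed levels of leukocyte and endothelial markers reached at most 14.4 on any array on the same scale, on which the 75th percentile is 1. The part of these cell type markers in the results below was not tested.

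Of the 47 tested members, 21 (44.7%) were called lower at D15 than at D4, against 3.83% of all genes tested. None was called higher, against 5.72% of all genes. By limma, 1 member, CDKN1B, was higher at an unadjusted p below 0.05, and the methods' t-test on the same values called 0 higher. The median log2 fold change of the 47 members was -0.97, where that of all genes was 0.02. After DMSO removal, 21 members (44.7%) were called higher at D34 ± DMSO than at D30 + DMSO, against 5.12% of all genes, and none was called lower, against 1.98%. Here, 3 members were lower at an unadjusted p below 0.05 by limma and 0 were called lower by the methods' t-test. Of the 21 members lower at D15, 19 were higher after removal, and these comparisons share no array. How many of all genes lower at D15 were also higher after removal was not counted, so the 19 are not set against other genes that fell. The 19 were CCNA2, CCNB1, CCNE2, CDK1, CDK2, CDKN2C, CDKN2D, CDKN3, E2F1, E2F2, E2F7, E2F8, RBL1, the CDC25 phosphatases, PKMYT1, CKS2 and MYBL2, and they included no D-type cyclin and neither CDK4 nor CDK6. Within the slides that hold both conditions, all 21 members had the sign of the call on each of 3 slides from D4 to D15 and on each of 2 slides after removal. The calls were made on these same arrays, so this agreement was favoured by the choice of members and is no separate support. The summed markers at D34 ± DMSO ran from 2478 to 3098 for hepatocytes and from 11.9 to 27.6 for mesenchymal and stellate cells, against 3126 to 5118 and 3.04 to 5.54 at D30 + DMSO. With the methods' t-test in place of limma, 11 members were called lower at D15 and 8 higher after removal. The shares of all genes called by that test are not given here, so these counts are not set against them.

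**Figure D1:**
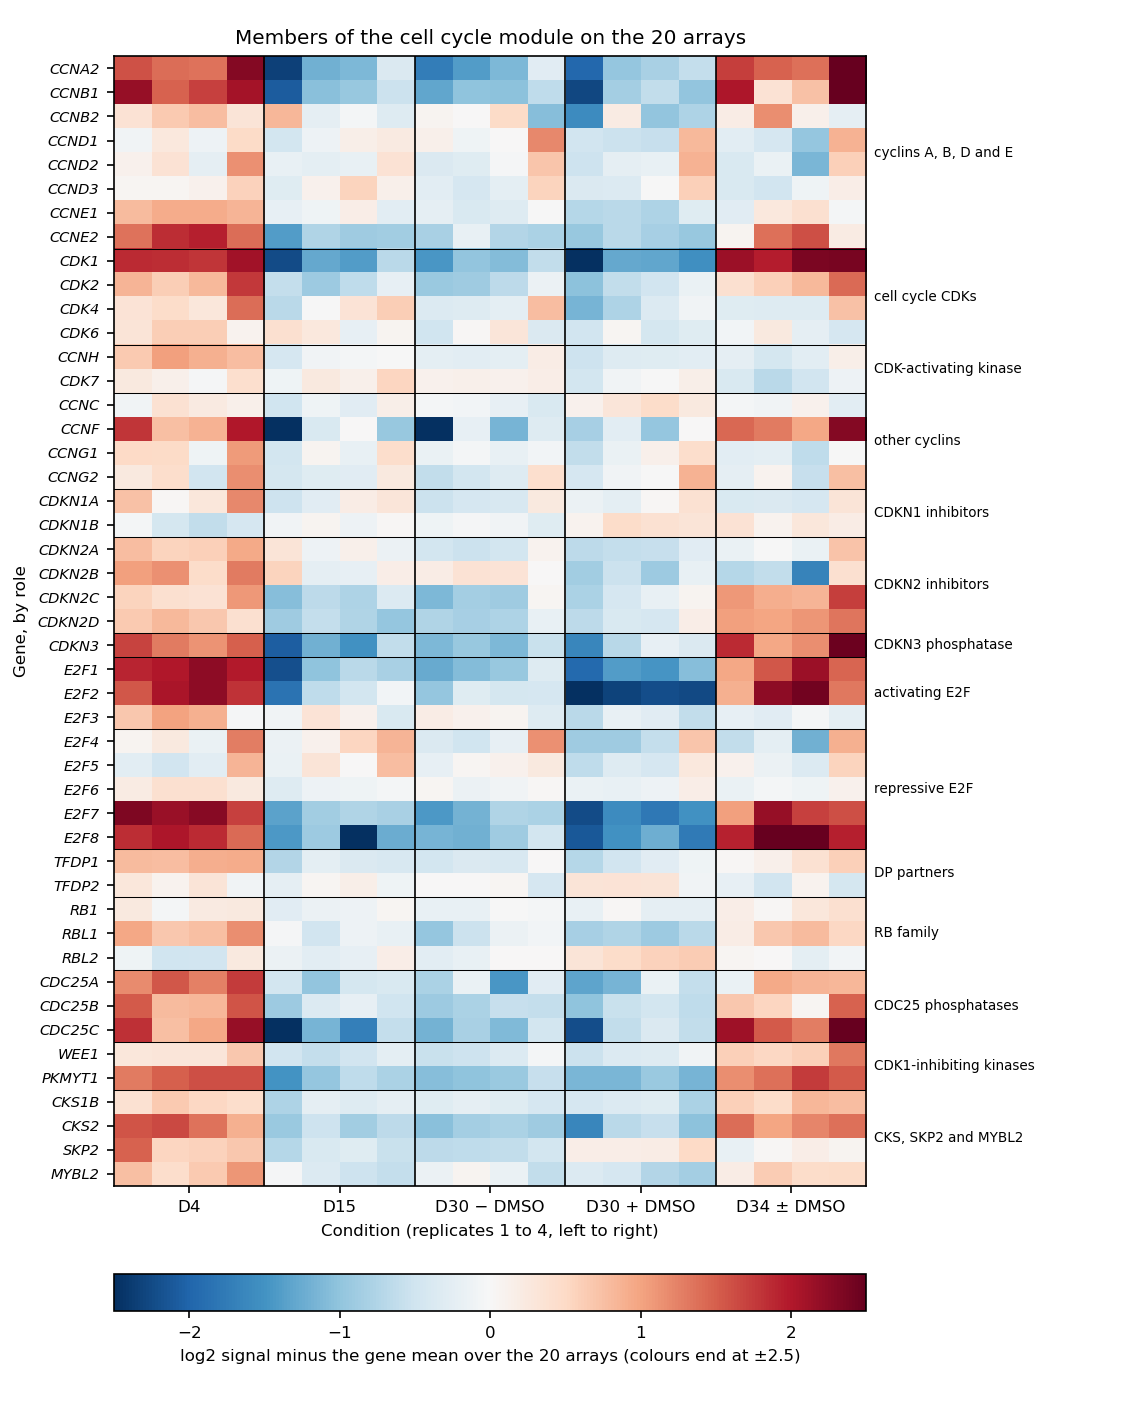
Heat map of the 47 tested members (rows, grouped by role) on the 20 arrays (columns, 4 replicates per condition). Colour is the log2 signal minus the mean of the gene over the 20 arrays. The rows of CCNA2, CDK1, E2F1, E2F7 and PKMYT1 are red at D4 and D34 ± DMSO and blue at the other conditions, whereas those of CCND3, RB1 and E2F6 show little colour.

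Among the cyclins A, B, D and E, 3 of 8 were called lower at D15 and the same 3 were called higher after removal: CCNA2, CCNB1 and CCNE2. CCNA2 (NM_001237), cyclin A, which serves CDK2 and CDK1, had log2 signals of 0.10, -0.09, -0.13 and 0.80 at D4 and of -3.82, -2.70, -2.61 and -1.86 at D15. Its arrays stayed between -3.46 and -1.77 at D30 with or without DMSO, and returned to 0.23, -0.03, -0.11 and 1.16 at D34 ± DMSO. No array of the 3 middle conditions reached those of D4 or D34 ± DMSO. CCNA2 fell by 2.92 on the log2 scale at D15 (SE 0.41, adjusted p = 2.49e-05), or 7.57-fold, and rose by 2.89 after removal (SE 0.41, adjusted p = 3.97e-05).

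CCNB1 (NM_031966), cyclin B1 of the mitotic kinase, gave 3.03, 2.33, 2.57 and 2.94 at D4, -1.22, -0.19, -0.09 and 0.32 at D15 and 2.87, 1.22, 1.59 and 3.60 at D34 ± DMSO. The last group was wide, with replicates 1 and 4 near the arrays of D4 and replicates 2 and 3 below all of them. The fall was 8.06-fold and the rise 6.27-fold (SE 0.45, adjusted p = 0.00028), and the rise was not called without the 7 arrays of slide 4 (adjusted p = 0.00519). The second probe of CCNB1 was called alike, at a log2 fold change of -1.83 and 1.68. CCNE2 (NM_057749), an E-type cyclin of the G1/S transition, went from 0.10 ± 0.30 (SD, n = 4) at D4 to -2.51 ± 0.29 at D15, and stood at -1.46, -0.16, 0.07 and -1.33 after removal. Replicates 2 and 3 of D34 ± DMSO lay within the range of D4 and replicates 1 and 4 lay more than 1 log2 unit below it. The rise was not called without slide 4 (adjusted p = 0.0101). Its second probe fell alike at D15 but was not called after removal, at 2.81.

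The other E-type cyclin, CCNE1 (NM_001238), lay at 1.56, 1.70, 1.71 and 1.62 at D4 and at 0.57, 0.67, 0.94 and 0.50 at D15. The groups did not overlap and the adjusted p was 9.89e-05, but the log2 difference of -0.98 was just under 2-fold. The D-type cyclins, which pass growth signals on to CDK4 and CDK6, were called in no comparison. Their log2 fold changes at D15 were -0.19 for CCND1, -0.40 for CCND2 and -0.07 for CCND3, and after removal -0.0015, -0.26 and -0.17. CCND1 signals were -0.16, 0.19, -0.19 and 0.42 at D4 and -0.34, -0.49, -1.04 and 0.80 at D34 ± DMSO, so that the groups overlapped. The 95% interval of the CCND1 change at D15 ran from -0.97 to 0.60. CCNB2 was dim, well above background on 3, 3, 2, 1 and 4 of 4 arrays in the order of the conditions, and was not called (log2 fold change 1.09 after removal, adjusted p = 0.0484). It was bright enough to be tested only through D34 ± DMSO, so that value is no support for a rise there.

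Of the 4 cell cycle CDKs, CDK1 and CDK2 were lower at D15 and higher after removal. CDK1 (NM_001786), the kinase of mitotic entry, had log2 signals of 1.93, 1.91, 1.85 and 2.16 at D4 and of -2.17, -1.22, -1.33 and -0.62 at D15. With DMSO at D30 it stood at -2.51, -1.23, -1.24 and -1.47, and after removal at 2.19, 2.03, 2.41 and 2.43, where 3 of 4 arrays lay above all those of D4. It was 9.82-fold lower at D15 and 14.7-fold higher after removal (SE 0.29, adjusted p = 3.96e-08). CDK2 (NM_001798), which acts at the start of S phase, fell by 1.60 (SE 0.27, adjusted p = 0.000187) and rose by 1.37 (adjusted p = 0.00107). The rise of CDK2 was not called under 6 of 33 alternatives, among them normexp (0.57, adjusted p = 0.0236), quantile normalization (adjusted p = 0.00948) and leaving out D30 + DMSO replicate 1 (adjusted p = 0.00521) or D34 ± DMSO replicate 4 (adjusted p = 0.00505). The fall of CDK2 was under 2-fold with normexp (-0.77). The G1 kinases were not called. CDK4 gave 2.95, 3.06, 2.90 and 4.02 at D4 and 1.94, 2.61, 2.96 and 3.23 at D15, with replicate 4 the highest array of every condition, and CDK6 changed by -0.28 at D15 and by 0.18 after removal.

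The CDK-activating kinase and the remaining cyclins moved less. Cyclin H (NM_001239), which with CDK7 forms the kinase that activates the other CDKs, had log2 signals of 3.41, 3.78, 3.64 and 3.52 at D4 and of 2.35, 2.67, 2.70 and 2.75 at D15. The difference of -0.97 (SE 0.15, adjusted p = 6.26e-05) was just under 2-fold, and the mean at D34 ± DMSO was 2.56. CCNH was called lower at D15 with the slide or the scan session as a block (both -1.03) and without slide 4 (-1.10), D4 replicate 1 (-1.03) or D15 replicate 4 (-1.01). CDK7 differed by 0.01 at D15. CCNC, CCNG1 and CCNG2, cyclins with roles in transcription and stress, differed by -0.35, -0.52 and -0.53 at D15 and were not called. CCNF, the F-box cyclin of G2, was well above background on 3 of 4 arrays at D4, on none at D15 and at either D30 condition, and on 4 at D34 ± DMSO. With its dim arrays raised to the lowest signal well above background on each, CCNF was 3.00-fold lower at D15 and 3.49-fold higher after removal. In the limma fit the adjusted p was 0.00651 at D15 and 0.0304 after removal, and it was not called in either comparison. Its log2 fold change at D15 ran from -2.99 to -0.31 over the alternatives. CCNF was called lower at D15 with the slide as a block (adjusted p = 0.00271), with the scan session as a block (adjusted p = 0.00123), with the replicate number as a block (adjusted p = 0.00239), and without D15 replicate 3 (adjusted p = 0.00364) or D30 − DMSO replicate 1 (adjusted p = 0.0024). It was called higher after removal in a fit of only the arrays compared (adjusted p = 0.0032). CCNF was bright enough to be tested only through D34 ± DMSO. The filter thus favoured a rise there, and these values are no support for one.

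**Figure D2:**
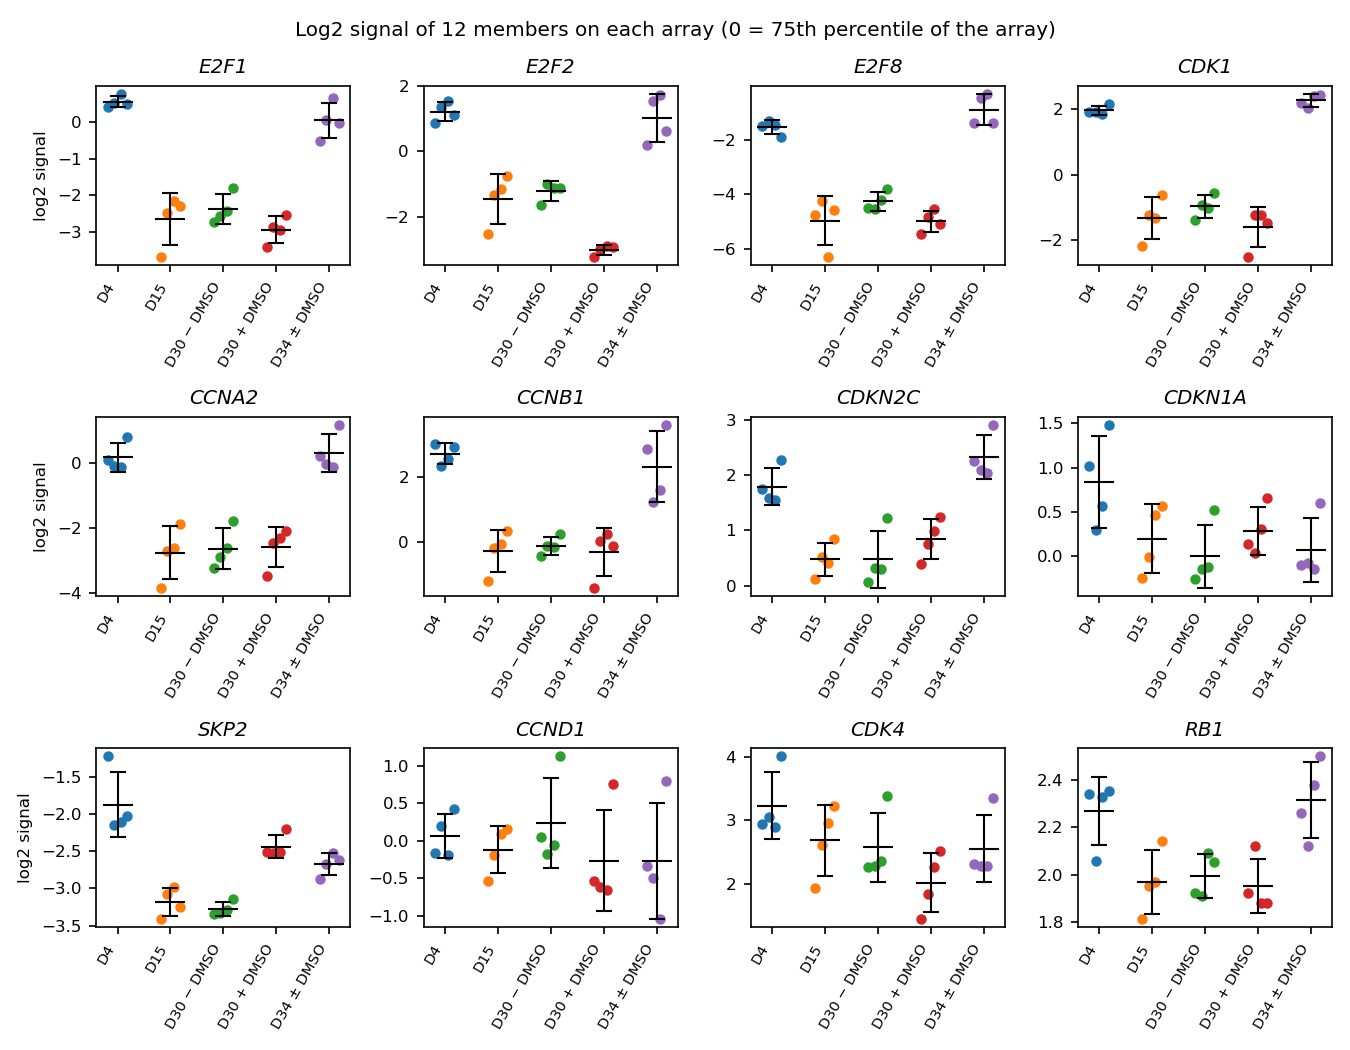
Log2 signal (vertical axis, 0 is the 75th percentile of the array) of 12 members in the 5 conditions. Points are the 4 arrays, and the black marks are the mean and SD (n = 4). E2F1, E2F8, CDK1, CCNA2, CCNB1 and CDKN2C are high at D4 and D34 ± DMSO only, and E2F2 is lowest at D30 + DMSO. SKP2 at D34 ± DMSO lies between D4 and D30 − DMSO, and CCND1 overlaps between all conditions.

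Among the E2F factors, E2F1, E2F2, E2F7 and E2F8 were lower at D15 and higher after removal, and the other 4 were not called. E2F1 (NM_005225), an activator of S phase genes, had log2 signals of 0.42, 0.52, 0.76 and 0.49 at D4, -3.69, -2.49, -2.15 and -2.29 at D15, -3.43, -2.88, -2.95 and -2.54 at D30 + DMSO and -0.52, 0.06, 0.65 and -0.03 at D34 ± DMSO. All arrays of the last group were above those of D15 and both D30 conditions, and replicates 1, 2 and 4 lay below every array of D4. The fall at D15 was 9.22-fold and the rise after removal 7.95-fold (SE 0.31, adjusted p = 1.05e-06). E2F2 (NM_004091), a second activator, gave 0.86, 1.35, 1.55 and 1.11 at D4 and -2.54, -1.33, -1.16 and -0.76 at D15, a fall of 2.66 (SE 0.34, adjusted p = 8.85e-06). After removal it stood at 0.20, 1.54, 1.73 and 0.62, a rise of 4.04 (SE 0.34, adjusted p = 1.15e-07) from its lowest condition.

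The third activator, E2F3, was not called at either step, with log2 fold changes of -0.64 and 0.25. The atypical repressors followed the activators. E2F7 (NM_203394) went from 0.95 ± 0.29 at D4 to -2.11 ± 0.26 at D15 and from -2.95 ± 0.33 at D30 + DMSO to 0.45 ± 0.48 at D34 ± DMSO (SD, n = 4). E2F8 (NM_024680), its close relative, had log2 signals of -1.48, -1.31, -1.46 and -1.92 at D4, -4.76, -4.23, -6.28 and -4.56 at D15, -5.45, -4.84, -4.54 and -5.10 at D30 + DMSO and -1.40, -0.48, -0.34 and -1.38 at D34 ± DMSO. E2F8 was called lower at D15 (adjusted p = 8.26e-07) and higher after removal (adjusted p = 1.74e-07). E2F8 was well above background on 1 of 4 arrays at D15 and at D30 + DMSO and on 3 at D30 − DMSO, and its fitted log2 change moved with the background correction. At D15 it was -3.42 and -1.27 with normexp, and after removal 4.08 and 1.74 with normexp, both still called. The other repressive members, E2F4, E2F5 and E2F6, which act with the RB relatives or with polycomb proteins, were not called, at -0.02, 0.27 and -0.46 at D15 and at 0.12, 0.32 and 0.03 after removal.

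The DP proteins pair with E2F to bind DNA. TFDP1 (NM_007111) fell by 1.29 at D15 (SE 0.16, adjusted p = 6.3e-06), from 2.07, 2.06, 2.19 and 2.21 to 0.54, 1.04, 0.91 and 0.87. After removal it reached 1.31, 1.42, 1.67 and 1.88, below all arrays of D4 and above all of D30 + DMSO, a difference of 0.69 that was under 2-fold (adjusted p = 0.00418). The second probe of TFDP1 was not called at D15. TFDP2 differed by -0.18 and -0.48. Within the RB family, RB1 had the narrowest range of condition means of all 47 tested members, within 0.36 log2 units of each other. Its log2 signals were 2.34, 2.06, 2.33 and 2.35 at D4, 1.81, 1.95, 1.97 and 2.14 at D15, 1.92, 2.12, 1.88 and 1.88 at D30 + DMSO and 2.26, 2.12, 2.38 and 2.50 at D34 ± DMSO. RBL1 (NM_002895), which encodes the relative p107, was 2.14-fold lower (SE 0.19, adjusted p = 0.0002) and rose by 1.33 (SE 0.19, adjusted p = 3.58e-05), and RBL2, which encodes p130, lay at 0.10 at D15. Both calls of RBL1 were lost with normexp (-0.43, adjusted p = 0.0137, and 0.38, adjusted p = 0.034), and the fall was lost without slide 4 (adjusted p = 0.0106). At D30 + DMSO, the 4 RBL2 arrays, 0.54, 0.68, 0.78 and 0.85, lay above all those of D30 − DMSO and of D34 ± DMSO, by a log2 difference of 0.61 from D30 − DMSO that was not called (adjusted p = 0.0102).

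Because these genes moved together, their promoters were searched for letters that E2F and the cell cycle genes homology region (CHR) are known for. RefSeq gives a promoter window (GRCh38.p14) for 39 of the 48 members, of which 13 have several, and the first one listed was used. In the 250 bases before the start, the E2F letters TTTCCCGC, TTTGGCGC, TTTCGCGC or TTTGCCGC occurred on either strand in 5 of 17 members lower at D15 (29.4%), in 1 of 22 members not called (4.55%) and in 761 of 27305 promoters in all (2.79%). The CHR letters TTTGAA or TTCGAA occurred in 17.6%, 22.7% and 14.6%, and the letters CCAAT in 52.9%, 36.4% and 33.0%. When every listed window of a gene was counted, the E2F letters occurred in 35.3%, 4.55% and 3.4%. The members chosen for holding such letters within 100 bases of the start, apart from CCNF, are shown here 5′ to 3′ on the strand of the gene up to the base before the start, with the E2F and CHR letters in capitals.
E2F1: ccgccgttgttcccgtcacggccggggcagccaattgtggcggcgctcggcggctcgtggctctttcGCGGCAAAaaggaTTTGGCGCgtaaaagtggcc
E2F2: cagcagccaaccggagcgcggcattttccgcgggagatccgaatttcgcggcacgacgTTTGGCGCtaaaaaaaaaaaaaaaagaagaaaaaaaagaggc
RBL1: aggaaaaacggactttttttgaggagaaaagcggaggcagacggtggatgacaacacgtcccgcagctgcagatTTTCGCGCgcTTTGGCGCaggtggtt
CDC25A: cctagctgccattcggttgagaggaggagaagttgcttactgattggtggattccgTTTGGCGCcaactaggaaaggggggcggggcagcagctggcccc
E2F3: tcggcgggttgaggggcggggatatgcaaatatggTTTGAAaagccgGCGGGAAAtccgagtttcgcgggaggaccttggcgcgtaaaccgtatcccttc
CCNB2: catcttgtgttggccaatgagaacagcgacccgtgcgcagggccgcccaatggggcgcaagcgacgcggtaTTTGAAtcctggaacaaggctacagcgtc
CKS1B: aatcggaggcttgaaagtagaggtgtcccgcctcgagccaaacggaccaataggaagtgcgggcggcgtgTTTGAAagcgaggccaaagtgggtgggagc
CKS2: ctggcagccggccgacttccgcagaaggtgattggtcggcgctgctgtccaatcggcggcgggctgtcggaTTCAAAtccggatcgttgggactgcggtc

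In the order shown, these lie at chr20:33686386-33686485 (minus strand), chr1:23531234-23531333 (minus strand), chr20:37095998-37096097 (minus strand), chr3:48188418-48188517 (minus strand), chr6:20401779-20401878 (plus strand), chr15:59105046-59105145 (plus strand), chr1:154974581-154974680 (plus strand) and chr9:89311095-89311194 (plus strand). The E2F letters began 33 and 20 bases before the start in E2F1, 42 in E2F2, 26 and 16 in RBL1, 44 in CDC25A and 53 in E2F3, the last a gene that was not called. The CHR letters of the 2 CKS genes and of CCNB2 began 29 or 30 bases before the start. A match of letters is a description of the sequence, and a window without a match says nothing about whether a factor binds there.

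Among the inhibitors, CDKN2C, CDKN2D and CDKN3 were called lower at D15 and higher after removal. CDKN2C (NM_078626), which encodes the CDK4 and CDK6 inhibitor p18, had log2 signals of 1.74, 1.59, 1.54 and 2.27 at D4, 0.12, 0.52, 0.41 and 0.84 at D15, 0.39, 0.75, 0.99 and 1.25 at D30 + DMSO and 2.26, 2.08, 2.03 and 2.90 at D34 ± DMSO. It fell by 1.31 (SE 0.26, adjusted p = 0.000998) and rose by 1.48 (SE 0.26, adjusted p = 0.000422), with no overlap at either step. CDKN2D (NM_001800), which encodes p19 of the same family, fell by 1.43 and rose by 1.44 (SE 0.18, adjusted p = 7.69e-06), and its 4 arrays after removal, 2.61, 2.58, 2.70 and 2.92, lay above those of D4, 2.23, 2.39, 2.26 and 1.98. The CDK phosphatase CDKN3 (NM_005192) was 6.76-fold lower at D15 and 5.03-fold higher after removal.

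The inhibitors best known for cell cycle exit were not called at either step. CDKN1A, which encodes p21, gave 1.02, 0.30, 0.57 and 1.48 at D4, -0.25, 0.00, 0.47 and 0.57 at D15, 0.14, 0.03, 0.31 and 0.65 at D30 + DMSO and -0.10, -0.07, -0.14 and 0.61 at D34 ± DMSO, with overlap between all neighbouring conditions. CDKN1B, which encodes p27, was among the 4 members with a positive difference at D15 (0.35, adjusted p = 0.059). CDKN2A, the gene of p16 and p14ARF, lay at 4.64, 4.43, 4.47 and 4.82 at D4 and at 4.19, 3.74, 4.00 and 3.73 at D15 without overlap, a difference of -0.67 (adjusted p = 0.0153). CDKN2B, which encodes p15, had a log2 fold change of -0.90 at D15 (adjusted p = 0.0461) and of -0.02 after removal. CDKN1C, which encodes p57, was the 1 member not tested: it was well above background on 1, 0, 2, 3 and 1 of 4 arrays in the order of the conditions.

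To set activators against inhibitors, each gene was centred on its mean over the 20 arrays, and the 12 cyclins A, B, D and E with CDK1, CDK2, CDK4 and CDK6 were averaged per array, as were the 6 tested CDKN1 and CDKN2 inhibitors. The activator means of the arrays ran from 0.81 to 1.21 at D4, from -0.77 to -0.15 at D15, from -0.64 to -0.06 at D30 − DMSO, from -1.17 to -0.29 at D30 + DMSO and from 0.38 to 0.92 at D34 ± DMSO. The inhibitor means ran from 0.30 to 0.75 at D4, from -0.30 to -0.16 at D15, from -0.46 to -0.01 at D30 − DMSO, from -0.50 to 0.08 at D30 + DMSO and from -0.0013 to 0.78 at D34 ± DMSO. Averaged over the arrays of a condition, both means were thus lower at D15 and higher after removal, and the inhibitor mean did not run opposite to the activator mean. The inhibitor arrays overlapped after removal, where D34 ± DMSO replicate 3 (-0.0013) lay below D30 + DMSO replicate 4 (0.08). At that step CDKN2A, CDKN2C and CDKN2D changed by 0.62, 1.48 and 1.44, whereas CDKN1A, CDKN1B and CDKN2B changed by -0.21, -0.08 and -0.02. The means are a description with no test, and D-type cyclins and CDKN1 genes within them moved little.

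**Figure D3:**
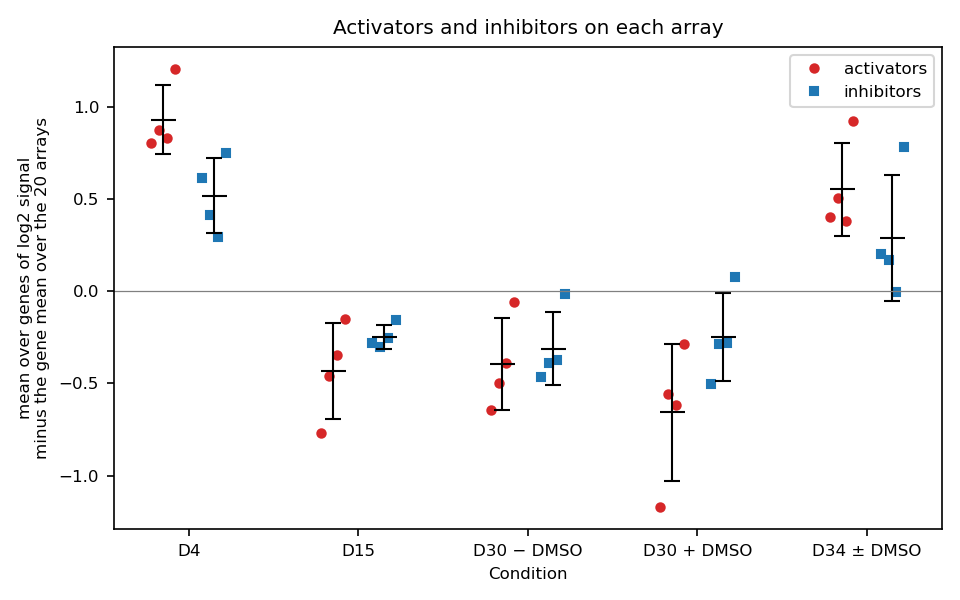
Mean over 12 activators (red circles) and 6 inhibitors (blue squares) of the log2 signal minus the mean of the gene over the 20 arrays, 1 point per array, with the mean and SD of the 4 arrays in black. The activator means fall from 0.81 or more at D4 to -0.15 or less at D15 and return to 0.38 or more at D34 ± DMSO. The inhibitor means move the same way on average, with overlap of the arrays of D30 + DMSO and D34 ± DMSO.

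The genes that switch CDK1 on and off by phosphorylation moved in the same direction as each other. All 3 CDC25 phosphatases, which remove the inhibiting phosphates, fell at D15 and rose after removal. CDC25A changed by -2.00 and 1.43, CDC25B by -1.67 and 1.34, and CDC25C by -3.00 and 2.94. CDC25C (NM_001790) gave -0.84, -1.90, -1.70 and -0.47 at D4, -5.49, -3.81, -4.37 and -3.24 at D15 and -0.53, -1.11, -1.38 and 0.36 at D34 ± DMSO, with replicate 1 of D15 the lowest and 3 of 4 D15 arrays well above background. The rise of CDC25A (adjusted p = 0.00208) was not called with D30 + DMSO replicate 1 or 2 or D34 ± DMSO replicate 2, 3 or 4 left out, where its adjusted p reached 0.00959, nor with normexp (0.62) or without slide 4 (adjusted p = 0.00833). The rise of CDC25B was lost without slide 4 (1.19, adjusted p = 0.0127) and in a fit of only the arrays compared (adjusted p = 0.0128). Of the kinases that place these phosphates, PKMYT1 (NM_182687) had log2 signals of 2.85, 3.04, 3.16 and 3.16 at D4, 0.06, 0.58, 0.91 and 0.77 at D15 and 2.71, 2.93, 3.30 and 3.08 at D34 ± DMSO. It fell by 2.47 (SE 0.17, adjusted p = 5.81e-09) and rose by 2.55 (SE 0.17, adjusted p = 1.6e-08), with the smallest adjusted p of the members at both steps. WEE1 differed by less than 2-fold at D15 (-0.84, adjusted p = 0.00134) and rose by 1.08 after removal (adjusted p = 0.000158), a rise that was under 2-fold without D34 ± DMSO replicate 4 (0.90) and with normexp (0.88).

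Among the CKS proteins, which attach CDKs to their substrates, CKS2 (NM_001827) gave 4.45, 4.52, 4.22 and 3.76 at D4, 1.95, 2.36, 1.99 and 2.21 at D15, 1.24, 2.20, 2.30 and 1.85 at D30 + DMSO and 4.26, 3.86, 4.10 and 4.24 at D34 ± DMSO. It was 4.32-fold lower at D15 and 4.64-fold higher after removal, and CKS2 kept the call at both steps under all 33 alternatives. CKS1B differed by -0.88 at D15 (adjusted p = 0.00014), under 2-fold, and rose by 1.13 after removal (SE 0.15, adjusted p = 1.42e-05). MYBL2, the MYB protein of the complex that drives G2 and M phase genes, fell by 1.11 (adjusted p = 0.000144) and rose by 1.02 (adjusted p = 0.000431). Both changes lie near the 2-fold limit, and the rise was not called under 9 of 33 alternatives, among them normexp (0.46), leaving out slide 4 (0.80), the slide as a block (0.99) and leaving out D30 + DMSO replicate 3 (0.97) or 4 (0.93) or D34 ± DMSO replicate 2 (0.96). The fall was not called with normexp (-0.62), without slide 4 (-0.80, adjusted p = 0.00529) or without D4 replicate 4 (-0.98).

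**Figure D4:**
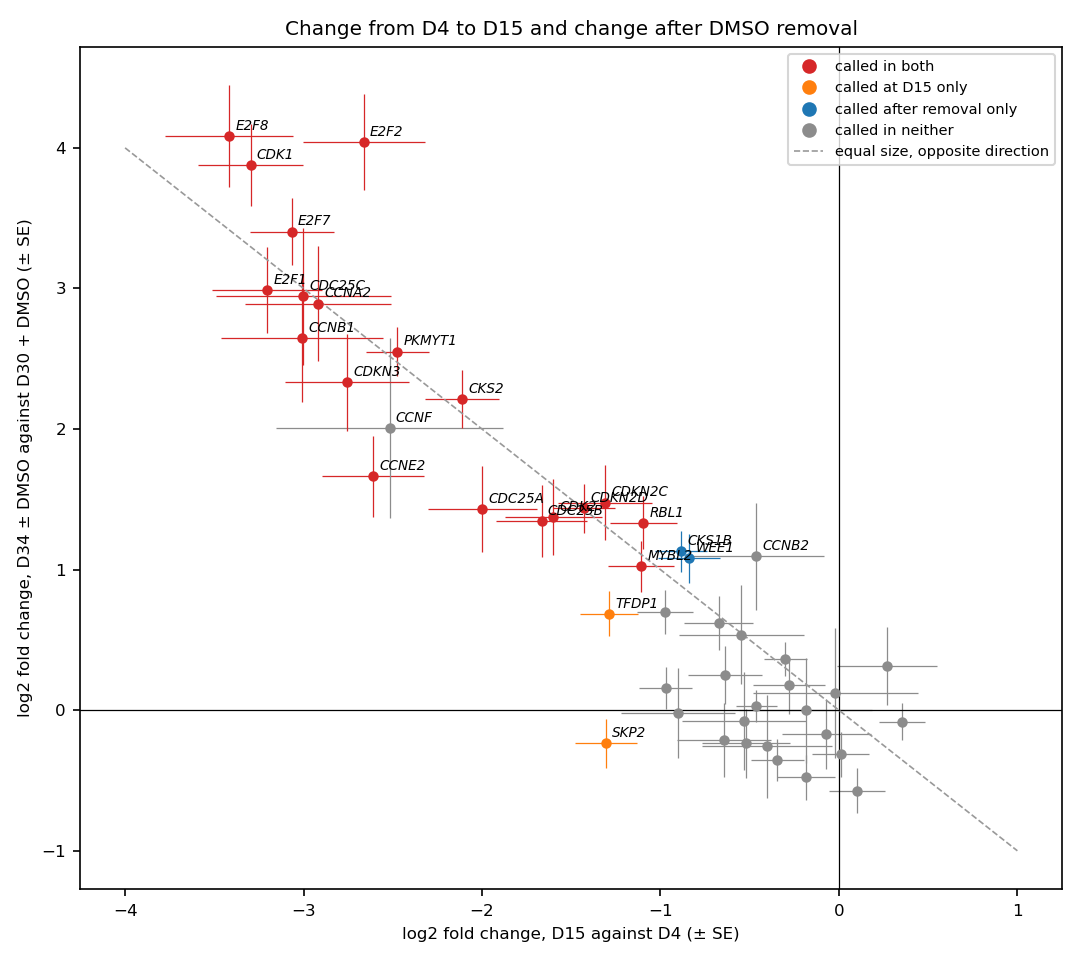
Log2 fold change at D15 against D4 (horizontal axis) and at D34 ± DMSO against D30 + DMSO (vertical axis) of the 47 tested members, with bars for ± 1 SE. The axes share no array. The 19 members called in both (red) lie on either side of the dashed line of equal size and opposite direction, with E2F2 above it and CCNE2 below it. SKP2 and TFDP1 (orange, called at D15 only) also lie below the line. WEE1 and CKS1B are called after removal only (blue), and most uncalled members (grey) lie within 1 log2 unit of 0 on both axes.

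SKP2, the F-box protein that marks p27 and other substrates for degradation, fell at D15 and was not called after removal. Its log2 signals were -1.22, -2.14, -2.11 and -2.02 at D4, with replicate 1 apart from the others, and -3.41, -3.08, -2.99 and -3.25 at D15. They were -3.35, -3.33, -3.30 and -3.14 at D30 − DMSO, -2.52, -2.53, -2.51 and -2.20 at D30 + DMSO and -2.87, -2.67, -2.53 and -2.62 at D34 ± DMSO. The fall was 2.47-fold (SE 0.17, adjusted p = 1.38e-05) and under 2-fold with normexp (-0.55). The arrays with DMSO then lay above all those without it, by 0.84, under 2-fold (adjusted p = 0.00189). The change after removal was -0.23 (adjusted p = 0.42), so that SKP2 stayed 1.74-fold below D4 (adjusted p = 0.00214). Its arrays at D34 ± DMSO lay above all those of D30 − DMSO, by 0.61 with a 95% interval from 0.24 to 0.97.

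Whether the rise after removal had the size of the fall at D15 was tested for each gene, as the change after removal minus the change from D15 back to D4. SKP2 was the 1 member of 47 called, lower by 1.54 (SE 0.25, adjusted p = 0.000205), against 1.35% of all genes tested, and no member was called higher, against 4.93% of all genes. By limma, 1 member, E2F2, was higher at an unadjusted p below 0.05. The call of SKP2 was lost with normexp (adjusted p = 0.00814) and without slide 4 (adjusted p = 0.0121), and the methods' t-test was not run for this difference. For the 19 members that fell and rose, the median fall was -2.61 and the median rise 2.33 on the log2 scale, and the rise was the larger in 9 and the smaller in 10. These members were chosen by a call at both steps, which favours a rise near the size of the fall, so the medians are a description only. The choice left out SKP2 (-1.31 at D15 and -0.23 after removal) and TFDP1 (-1.29 and 0.69).

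Relative to D4, none of the 19 members that fell and rose was called at D34 ± DMSO, and their log2 differences from D4 ran from -0.82 (CCNE2) to 0.64 (E2F8), with a median of -0.19. The 19 were chosen by a call at both steps, which favours levels near D4, so the median is no support for a full return. SKP2 and TFDP1, which also fell at D15 but were not called after removal, differed from D4 by -0.80 and -0.56. The 95% interval of the difference was -0.42 to 0.32 for PKMYT1, -0.56 to 0.31 for CKS2, -0.31 to 0.92 for CDK1 and -1.15 to 0.14 for E2F1, so that a 2-fold difference lay outside the first 3 intervals but not the last. A 2-fold difference also lay inside the intervals of CCNA2, CCNB1, CCNE2 (-1.42 to -0.22), CDKN2C, E2F8 and the CDC25 phosphatases. In all, 2 of 47 members were called lower at D34 ± DMSO than at D4, against 2.85% of all genes, and none higher, against 5.72%. By limma, 16 members were lower at an unadjusted p below 0.05, among them CCNE2, E2F7 and CDC25A of the 19. At the same limit, 3 members (CDKN1B, CDKN2D and WEE1) were higher, and the methods' t-test called 0 higher. The median log2 fold change of the 47 members against D4 was -0.35, with 33 below 0 and 14 above. The members called lower were CCNH, by 1.02 (SE 0.15, adjusted p = 3.59e-05), and CDKN2B, by 1.62 (SE 0.32, adjusted p = 0.000793). CDKN2B gave -2.58, -2.47, -3.14 and -2.31 at D4 and -4.32, -4.22, -5.27 and -3.19 at D34 ± DMSO, where 3 of 4 arrays were well above background and replicate 3 was lowest. CCNH was under 2-fold without D4 replicate 2 (-0.96) or D34 ± DMSO replicate 2 (-0.94), and neither gene was called by the methods' t-test. CDKN1B lay above all arrays of D4, by 0.61, under 2-fold (adjusted p = 0.00176).

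Up to D30, the 2 conditions of D30 separate time in culture from DMSO, whereas the change after removal has no such pair. Between D15 and D30 − DMSO, no member was called, and 0.0135% of all genes were called higher and 0% lower. By limma, 0 members had an unadjusted p below 0.05 in either direction, the methods' t-test called 0, and the member log2 fold changes ran from -0.39 (CDKN2A) to 0.70 (E2F8). With DMSO, 1 of 47 members was called lower than at D30 − DMSO, against 4.23% of all genes, and none higher, against 1.74%. This was E2F2, at -3.23, -2.99, -2.90 and -2.94 with DMSO and -1.65, -0.99, -1.12 and -1.11 without. The 4 arrays with DMSO were the lowest 4 of the 20, and close together. E2F2 fell by 1.80 with DMSO (SE 0.34, adjusted p = 0.000891), or 3.47-fold, and the difference was -1.46 within slide 3 and -1.81 within slide 4. The summed hepatocyte markers ran from 2571 to 2674 without DMSO and from 3126 to 5118 with it, and the mesenchymal and stellate markers from 10.8 to 25.4 and from 3.04 to 5.54, and their part in this difference was not tested. E2F2 was not called with normexp (-0.98, adjusted p = 0.0102) or without slide 4 (-1.86, adjusted p = 0.0202).

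Other members differed less at this step. E2F7 lay below all arrays of D30 − DMSO with DMSO, at -0.74 (adjusted p = 0.035), and E2F1 and E2F8 at -0.56 and -0.73 were not distinguished from no change (adjusted p = 0.251 and 0.197). In the other direction, 4 members were higher at an unadjusted p below 0.05 by limma, and the methods' t-test called 0. These were SKP2, RBL2, CCNC by 0.46 (adjusted p = 0.0397) and CDKN1B by 0.45 (adjusted p = 0.0219), all under 2-fold. CDKN1B gave 0.30, 0.68, 0.60 and 0.54 with DMSO and 0.11, 0.18, 0.12 and -0.08 without. CDKN1A differed by 0.28 with DMSO, with a 95% interval from -0.27 to 0.83, so that a 2-fold rise lay outside it.

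**Figure D5:**
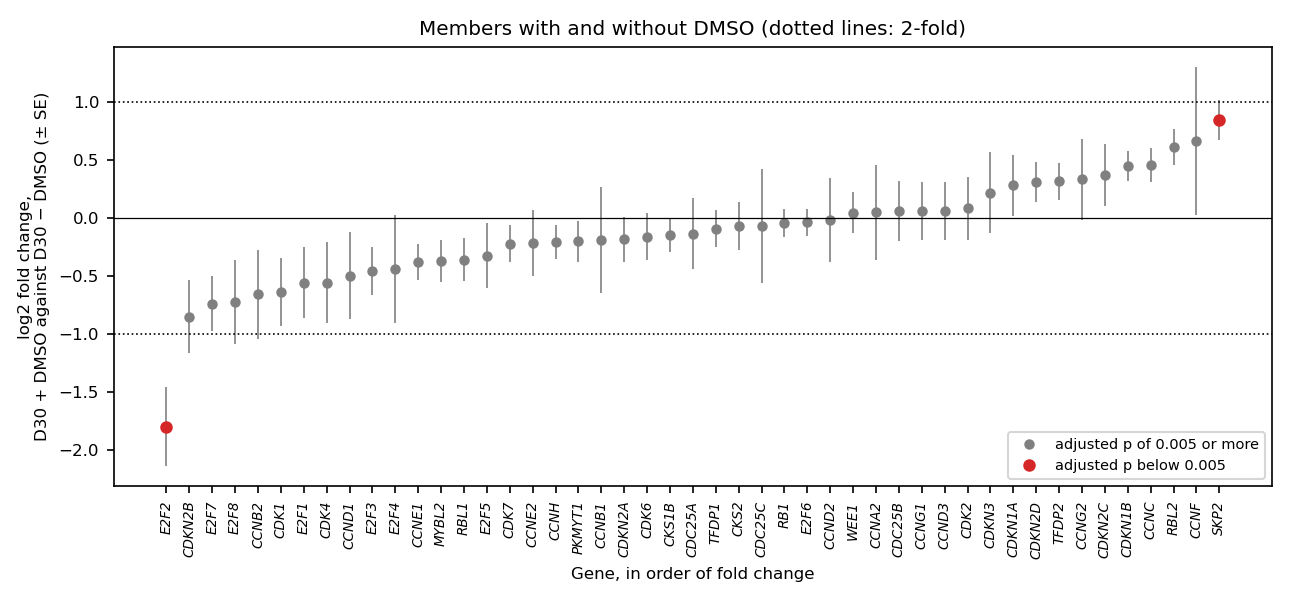
Log2 fold change of the 47 tested members at D30 + DMSO against D30 − DMSO (vertical axis, ± 1 SE), in order of size. Red points have an adjusted p below 0.005, and dotted lines mark 2-fold. E2F2 at -1.80 lies beyond the lower line, SKP2 at 0.84 lies inside the upper one, and the other 45 members have an adjusted p of 0.005 or more.

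Against cells of D30 that never met DMSO, the cells after removal were higher for 17 of 47 members (36.2%), against 1.32% of all genes, and lower for none, against 0.189%. By limma, 2 members (CDK7 and CDKN2B) were lower at an unadjusted p below 0.05, and the methods' t-test called 0 lower. CDK1 was 9.42-fold higher (SE 0.29, adjusted p = 1.35e-06) and CCNA2 7.67-fold, with no overlap of the arrays for either gene. All but WEE1 of the members called here were also lower at D15, and how many of all genes called here were so was not counted. The number of members called higher was 10 in a fit of only the arrays compared and 1 with the methods' t-test, which kept CKS2. It was 12 without slide 4, where CCNB1, CCNE2, E2F2, CDC25B and CDC25C lost the call. Of 33 alternatives, the call was lost in 23 for CCNE2, 11 for CDK2, 10 for CDC25B and 9 for CCNB1, and CKS2 was the 1 member that never lost it. The shares of all genes called under these settings are not given here.

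The members are part of a larger cell cycle programme, which was followed with lists of 82 further genes, of which 78 were tested. At D15, 29 of the 78 were called lower and none higher (2 higher by limma at an unadjusted p below 0.05), against 3.83% lower and 5.72% higher among all genes, with a median log2 fold change of -0.48. These included 7 of 8 mitotic kinases, 5 of 6 genes of replication licensing and its kinase, 5 of 5 proliferation markers, 5 of 12 genes of the anaphase-promoting complex and its regulators, and 3 of 7 genes of the MuvB core, which binds the CHR, with FOXM1 and MYBL1. Outside the proliferation markers, the largest falls were those of the kinases BUB1 (-3.43) and TTK (-3.13), of FOXM1 (-2.89), which activates G2 and M phase genes, and of CDC45 (-2.88), which joins the replication helicase. After removal, 26 were called higher, against 5.12% of all genes, with CDC45 at 3.61, TTK at 3.55 and the licensing factor CDT1 at 3.21. JUN was the 1 gene called lower (-1.34), against 1.98% of all genes. The proliferation markers rose by between 1.22 and 3.86. Cyclins and CDKs of transcription and other roles were called by limma for 0 of 17 genes at either step, where 1 was higher and 2 were lower at D15, and 1 was higher and 3 lower after removal, at an unadjusted p below 0.05.

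With DMSO, 3 of the 78 were called lower than at D30 − DMSO and none higher (7 by limma at an unadjusted p below 0.05), a share near that of all genes lower at this step (4.23%). They were MYBL1 (-1.64), FOSL1 (-1.47) and CDT1 (2.005-fold), all of them also lower at D15 and higher after removal. MYBL1 is a MYB factor, FOSL1 a growth-induced AP-1 protein and CDT1 loads the replication helicase. Against D4, the cells after removal were lower for 3 of the 78, FBXO32 (-1.31), MYC (-1.06) and CDK20 (-1.03), and higher for none (2 by limma at an unadjusted p below 0.05), and 2.85% of all genes were lower and 5.72% higher. Among the 10 members with several tested probes, no pair of probes was called in opposite directions in any of the 6 comparisons.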

How the data were processed

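Total RNA of 20 HepaRG cultures was labelled with Cy3 and hybridised to one-color arrays. The deposited intensity values were made by the authors with Agilent Feature Extraction (10.7.3.1 per the labels, 10.7.1.1 per the file headers), which subtracts the background and detrends each array without scaling between arrays. The deposited matrix holds log2 values that the authors shifted to a percentile of each array and centred per probe. Its column medians ran from -0.20 to 0.17, and over 21535 probes it differed from the values used here, once both were centred, by a median of 3.74e-07, so its direction and scale are settled and its baseline per probe is not stated.

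Outlier spots were left out, spots of a probe averaged, each array scaled to a common 75th percentile, values under 1 unit set to 1 and log2 taken, and 26538 of 42405 probes kept that were well above background on all 4 arrays of a condition. Probes were named through RefSeq accessions (24826 with a symbol, 17579 without), and each gene was read from its brightest probe on average. One limma fit (R 4.3.3, limma 3.58.1) of the 20 arrays gave each comparison. The same fit was also run on simulated data, drawn with independent noise for each array and so without a part shared by a slide. All 48 members are named, and of the pathway lists at most the 6 called genes with the largest change in a comparison. The members, lists and tests were chosen with earlier results of these data known. The replicates are independent experiments per the labels, and their number limits the precision. No column of the files was left without a sample. Alternatives were quantile normalization, normexp (offset 50), the deposited matrix, other filters and probe rules, blocks for replicate number, slide or scan session, a fit of the compared arrays alone, an adjusted p of 0.05, the methods' t-test and leaving out each array or slide 4.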

Additional observations from a re-analysis of the deposited data

Results flagged for a closer look

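In 25 of 235 groups of 4 arrays (10.6%), 1 array lay apart from the other 3 by Dixon's criterion, which chance gives in about 1 in 20 groups, and 18 of the 25 were replicate 4 arrays. Values are log2 signals. At D4, replicate 4 lay apart for CCND3 (2.03), CDK4 (4.02), E2F5 (-1.47) and WEE1 (0.23), replicate 2 for RB1 (2.06) and replicate 1 for SKP2 (-1.22). At D15, these were replicate 4 for CCND2 (-1.02) and replicate 2 for CDC25A (-3.64). At D30 − DMSO, replicate 4 lay apart for CCND3 (2.03), CDK4 (3.39), CCNH (2.94), CDKN2A (3.96), CDKN2D (1.40) and TFDP2 (1.35), and replicate 2 for CCNE2 (-1.73). At D30 + DMSO, these were replicate 4 for CCND1 (0.75), E2F6 (1.87), TFDP2 (1.69) and SKP2 (-2.20), replicate 1 for CDC25C (-4.87) and replicate 3 for PKMYT1 (0.63). At D34 ± DMSO, replicate 4 lay apart for CDK4 (3.35), CDKN1A (0.61) and WEE1 (0.86), and replicate 1 for CDC25A (-2.82). All replicate 4 arrays are on slide 4, and the part of the slide in these values was not tested.

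The change of SKP2 after removal differed from the reverse of its change from D4 to D15 by -1.54 on the log2 scale (limma, adjusted p = 0.000205). Its level at D4 rests in part on replicate 1, the array named above, and the difference was called with each of the 20 arrays left out in turn.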

How the results depend on the processing

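Over 10728 member values under the alternatives, 10545 kept their side of the thresholds, 149 lost a call, 34 gained one and 0 called values changed sign. Among the uncalled values, 290 changed sign. No scaling moved the median of all genes by 0.1 or more on the log2 scale. With the methods' t-test, 11 members were lower at D15, 8 higher after removal, 0 lower at D34 ± DMSO than at D4 and 1 higher than at D30 − DMSO. With normexp, 0 were lower with DMSO, 1 was lower at D34 ± DMSO than at D4, SKP2 was not called in the difference between steps (0 members), and the activator mean at D4 was 0.71. With only probes well above background on all arrays, 1 member was lower than at D4 and the inhibitor mean at D15 was -0.31. In a fit of only the arrays compared, 1 was lower than at D4 and 10 higher than at D30 − DMSO; the difference between steps spans 4 conditions and could not be fitted so. Leaving out slide 4, chosen after seeing the data like the scan session as a block, left 0 members lower with DMSO and 0 in the difference between steps. The cause of these changes was not tested, apart from the fewer arrays or probes in some. The shares of all genes called under the alternatives are not given here, so these counts are not set against them.

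Leaving out each array in turn gave 20 to 23 members lower at D15, 18 to 21 higher after removal, 1 to 3 lower than at D4 (1 without D4 or D34 ± DMSO replicate 2), 12 to 18 higher than at D30 − DMSO, and 1 each with DMSO and in the difference between steps. With a replicate block, the counts were 22, 21, 2, 17, 1 and 1 in the same order, and no call was lost (CCNF was the member gained at D15). The numbers were not taken as pairs, because 27 of 40 same-numbered pairs of arrays deviated together with an r over 0.1 and the lowest r was -0.33. The median r was 0.27, against -0.17 for other numbers, and 16 of 20 arrays correlated best with their own number. Arrays of the same slide had a median r of 0.39, with all 44 pairs over 0.1, and arrays of the same number on other slides 0.07. Depth limits E2F8, CDC25C, CDKN2B, CCNB2, CCNF and CDKN1C, whose probes were not well above background on some arrays.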
